A study of Homo sapiens with 6 samples.

Results

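The mRNAs of 7 matrix metalloproteinases (MMPs) and 3 tissue inhibitors of metalloproteinases (TIMPs) were followed in MDA-MB-231 cells. The genes MMP1, MMP2, MMP3, MMP9, MMP10, MMP13, MMP14, TIMP1, TIMP2 and TIMP3 were taken by symbol from the table of 57445 genes, and all 10 were found there. A minimum of 1 TPM (a gene's share of all transcripts, corrected for transcript length and scaled to a fixed total) in at least 3 libraries was met by 5 of the 10 and by 16554 genes in all. The other 5 members are described by their values and were tested only in a fit without this minimum.

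MDA-MB-231 is an established, invasive breast cancer cell line without hormone receptors. The cells carried a lentiviral pGIPZ vector with either a control shRNA (shCTL, 3 libraries) or an shRNA against ROR1, a Wnt-binding receptor tyrosine kinase (shRor1, 3 libraries), and both kinds of cells had been selected with puromycin. The labels describe the control as an empty vector, whereas the paper names a non-silencing shRNA. The column header of the control libraries carries the words for a non-silencing control and for DMSO, the solvent, which the shRor1 header lacks. The sources name 1 shRNA against ROR1, and nothing says that the 3 libraries of a condition came from separate cultures, so that the p-values measure the spread between these libraries.

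MMPs are zinc-dependent proteases that cut the proteins of the extracellular matrix. They are made as inactive proenzymes, are activated by removal of a propeptide, and are blocked when a TIMP occupies the active site. Secreted MMPs include the collagenases (MMP1, MMP13), the stromelysins (MMP3, MMP10) and the gelatinases (MMP2, MMP9), whereas MMP14 is anchored in the plasma membrane. MMP14 and TIMP2 together form the complex on the cell surface on which proMMP2 is activated, and MMPs of this kind are widely studied in breast cancer cells for their part in invasion.

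The members lie on several chromosomes of GRCh37. MMP1 (chr11:102660132-102668891), MMP3 (chr11:102706532-102714340), MMP10 (chr11:102641233-102651359) and MMP13 (chr11:102813724-102826461) belong to a cluster of 9 MMP genes on the minus strand of chromosome 11 that spans 435.2 kb. MMP14 lies at chr14:23305769-23318250, TIMP1 at chrX:47441807-47446188 inside a gene of the opposite strand, TIMP2 at chr17:76849059-76921469 and TIMP3 at chr22:33197691-33259028, likewise inside a gene of the opposite strand. MMP2 lies at chr16:55423612-55540603 and MMP9 at chr20:44637547-44645200. Of the 50-base stretches of the reference transcripts, the length of a read, 3.33% of MMP3 and 3.45% of MMP10 were shared between these paralogs, so that the split of reads between them is uncertain. A transcript on the opposite strand (ENSG00000267601, at most 19.63 TPM in any library) holds 8.83% of the stretches of TIMP2 in reverse. The kit keeps the strand, but whether the counting used it is not given in the sources used here. Reverse stretches in antisense transcripts made up 2.91% of MMP1 (WTAPP1, at most 0.24 TPM) and 11.15% of MMP9 (SLC12A5-AS1, at most 0.75 TPM), and 3.67% of MMP2 was shared with an overlapping transcript that was not analysed here. For MMP14, TIMP1, TIMP3 and MMP13 no stretch was shared.

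The region before the start of transcription was read from RefSeq (GRCh38.p14) for the 4 of the 10 members that had an entry in the promoter sequences at hand. Availability alone decided this set, and MMP1 and TIMP2, both above the minimum, had no entry. Only MMP10 of the 4 stayed under 1 TPM, so that the windows cannot show how promoters differ with level. The 250 bases before the start of MMP10 (chr11:102780629-102780878, minus strand), MMP14 (chr14:22836335-22836584, plus strand), TIMP1 (chrX:47582186-47582435, plus strand) and TIMP3 (chr22:32801455-32801704, plus strand) follow, 5′ to 3′. Capitals mark the motifs searched on both strands, namely the AP-1 site TGANTCA, the TATA box TATAAA, the GC box GGGCGG and the PEA3 site AGGAAG.
MMP10: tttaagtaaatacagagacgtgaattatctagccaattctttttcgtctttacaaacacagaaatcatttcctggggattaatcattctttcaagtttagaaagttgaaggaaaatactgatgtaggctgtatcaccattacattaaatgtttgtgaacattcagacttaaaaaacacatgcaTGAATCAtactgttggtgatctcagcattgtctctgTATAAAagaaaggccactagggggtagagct
MMP14: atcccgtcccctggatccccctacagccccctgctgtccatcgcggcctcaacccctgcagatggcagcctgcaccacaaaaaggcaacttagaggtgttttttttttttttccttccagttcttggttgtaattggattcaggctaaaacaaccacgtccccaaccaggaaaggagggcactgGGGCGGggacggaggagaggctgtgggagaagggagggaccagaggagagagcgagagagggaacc
TIMP1: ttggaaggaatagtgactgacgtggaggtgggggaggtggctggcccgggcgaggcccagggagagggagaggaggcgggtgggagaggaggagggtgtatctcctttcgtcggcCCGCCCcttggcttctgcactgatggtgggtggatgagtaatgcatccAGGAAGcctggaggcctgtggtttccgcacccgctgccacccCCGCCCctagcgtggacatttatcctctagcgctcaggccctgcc
TIMP3: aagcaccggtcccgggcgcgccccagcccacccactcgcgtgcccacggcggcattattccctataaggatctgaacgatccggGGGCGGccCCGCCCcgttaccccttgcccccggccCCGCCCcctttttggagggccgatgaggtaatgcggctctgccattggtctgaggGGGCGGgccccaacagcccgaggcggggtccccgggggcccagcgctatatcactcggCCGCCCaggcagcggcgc

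The MMP10 window held 1 AP-1 site, 67 bases before the start, and 1 TATA box, 31 bases before it, with 34.4% G and C. The other 3 windows held neither of these motifs, but 1 GC box for MMP14, 2 for TIMP1 and 5 for TIMP3, with 56.8, 64.8 and 72.4% G and C, and TIMP1 also held a PEA3 site. Of 35116 windows of this length, 6.57% held the AP-1 letters, 10.7% the TATA letters, 42.6% the GC box and 28.7% the PEA3 letters, and the median G and C content was 58.0%. These matches describe the letters of the reference and are not evidence of binding.

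The labelled cell line was first checked against its markers. All 8 genes expected in MDA-MB-231 were above the minimum, with a summed level of 6138.4 to 6614.8 TPM, of which the intermediate filament gene VIM had a mean of 2565.0 TPM in shCTL and 2692.1 TPM in shRor1. The hormone receptor genes ESR1 and PGR stayed at or below 0.21 and 0.01 TPM. Of the luminal list 8 of 10 genes were above the minimum (1046.5 to 1307.0 TPM in sum, mostly the keratins KRT8 and KRT18). Fibroblast markers summed to 10.8 to 18.2 TPM with LUM listed at 0 in every library, and 3 endothelial markers to 0.72 to 2.04 TPM. Of 8 leukocyte markers, which summed to 143.9 to 245.1 TPM, 2 were above the minimum, CD68 and CD163.

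For the targeted gene ROR1, the shCTL libraries gave 15.42, 13.49 and 20.56 TPM, and the shRor1 libraries 9.34, 11.93 and 14.85 TPM. The mean was 16.5 ± 3.65 TPM in shCTL and 12.0 ± 2.76 TPM in shRor1 (SD, n = 3 each), or 73% of control, and the highest shRor1 library stood above the lowest shCTL library. The difference was -0.43 on the log2(TPM + 1) scale (95% interval -0.88 to 0.03) and was not called (limma, adjusted p = 0.984). Leaving out 1 library moved this difference between -0.577 (without the third shRor1 library) and -0.264 (without the third shCTL library), and it stayed below 0 in all 14 other fits. A fall of the targeted mRNA was therefore not established by this fit. The paper reports a stable knockdown and shows a western blot of Ror1 protein, which the RNA values do not measure. As the RNA came from whole cultures, fewer cells with an mRNA and less of it per cell cannot be told apart. Across all genes, limma called 0 of 16554 at an adjusted p of 0.05 (0.0%, smallest adjusted p = 0.369), and 2.85% had an unadjusted p under 0.05. The paper reports a low number of significant genes from models fitted to counts, a test that could not be run on TPM. The median difference of all genes was 0.05 on the log2 scale, and 67.0% of them lay above 0. Counts of genes above and below 0 in the lists that follow are to be read beside this share.

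In shCTL and shRor1 cells alike, 3 members were abundant, 2 were intermediate and 5 stayed under 1 TPM. By mean TPM over the 6 libraries the order was TIMP1 (128.3), MMP14 (127.3), TIMP2 (117.4), MMP1 (16.8), TIMP3 (12.9), MMP3 (0.515), MMP10 (0.295), MMP13 (0.158), MMP9 (0.143) and MMP2 (0.0583). The ranges of TIMP1, MMP14 and TIMP2 overlapped, as did those of MMP1 and TIMP3, so that these neighbours cannot be ranked. Each of the 3 abundant mRNAs was higher than MMP1 and TIMP3 in every library, and these were higher than the remaining 5 in every library. Among all genes tested, the levels of TIMP1, MMP14 and TIMP2 stood at percentiles 92.6, 92.5 and 91.6, and those of MMP1 and TIMP3 at 55.4 and 49.8.

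**Figure D1:**
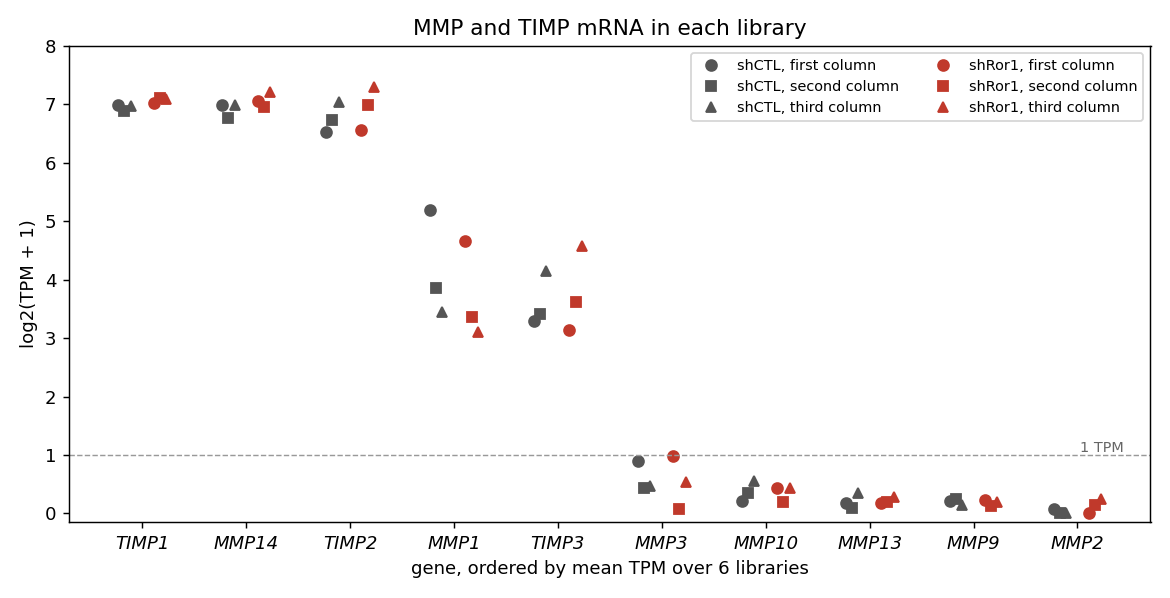
Level of each of the 10 members as log2(TPM + 1) in every library, with genes ordered by mean TPM, colour for the condition and shape for the column of the library within its condition. TIMP1, MMP14 and TIMP2 lie together at the top, MMP1 and TIMP3 spread widely in the middle, and 5 MMPs lie under the dashed line at 1 TPM.

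Among the membrane-bound proteases, MMP14 (ENSG00000157227.8) was the only abundant MMP of the 7. Its level was 125.95, 107.7 and 126.65 TPM in shCTL and 132.37, 123.73 and 147.18 TPM in shRor1. The second shRor1 library lay between the lowest and the highest shCTL library, so that the conditions overlapped. The mean was 120.1 ± 10.7 TPM in shCTL and 134.4 ± 11.9 TPM in shRor1, with a difference of 0.16 on the log2 scale (SE 0.10, 95% interval -0.06 to 0.39) that was not called (limma, adjusted p = 0.984).

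The interstitial collagenase MMP1 (ENSG00000196611.4), which cleaves fibrillar collagens, varied most. The shCTL libraries held 35.65, 13.52 and 9.97 TPM, against 24.46, 9.34 and 7.61 TPM for shRor1. In each condition the library of the first column was far above the other 2, and the conditions overlapped. The mean was 19.7 ± 13.9 TPM in shCTL and 13.8 ± 9.27 TPM in shRor1, or 70.0% of control. The difference of -0.45 on the log2 scale (SE 0.53, 95% interval -1.68 to 0.77) was smaller than the spread between libraries of a condition and was not called (limma, adjusted p = 0.984). Without the first shCTL library the difference was 0.058.

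The other collagenase MMP13 reached at most 0.27 TPM, the stromelysins MMP3 and MMP10 at most 0.97 and 0.47 TPM, and the gelatinases MMP9 and MMP2 at most 0.19 TPM each. MMP2 was listed at 0 in 3 of the 6 libraries. In a limma fit without the minimum, none of these 5 genes was called (adjusted p from 0.921 to 0.992).

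TIMP1 (ENSG00000102265.7), a secreted inhibitor of most MMPs, was the only member whose conditions did not overlap. Its level was 126.64, 117.51 and 124.2 TPM in shCTL and 129.81, 136.86 and 134.71 TPM in shRor1, so that every shRor1 library stood above every shCTL library. The mean was 122.8 ± 4.73 TPM in shCTL and 133.8 ± 3.61 TPM in shRor1, or 109.0% of control. The difference of 0.12 on the log2 scale (SE 0.06, 95% interval -0.03 to 0.27) was not called by limma (adjusted p = 0.984), and the exact permutation test gave p = 0.1, the smallest that 3 against 3 libraries allow. Of all genes tested, 6.48% were higher in every shRor1 library than in every shCTL library and 1.3% were lower, and 1 gene of the 5 members tested is no result about the members beside these shares.

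TIMP2 (ENSG00000035862.8), which blocks MMPs and also takes part in the activation of proMMP2, had 90.71, 105.83 and 131.15 TPM in shCTL and 93.25, 126.73 and 156.87 TPM in shRor1. The conditions overlapped widely. The mean was 109.2 ± 20.4 TPM in shCTL and 125.6 ± 31.8 TPM in shRor1, and the difference of 0.18 (95% interval -0.28 to 0.65) was not called (limma, adjusted p = 0.984). TIMP3 (ENSG00000100234.11), which binds to the matrix and also blocks ADAM proteases, had 8.77, 9.66 and 16.72 TPM in shCTL and 7.84, 11.21 and 22.93 TPM in shRor1. Both the lowest and the highest value were found in shRor1. The difference was 0.16 (95% interval -0.71 to 1.03; limma, adjusted p = 0.986), and it was -0.24 without the third shRor1 library and -0.002 without the first shCTL library.

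**Figure D2:**
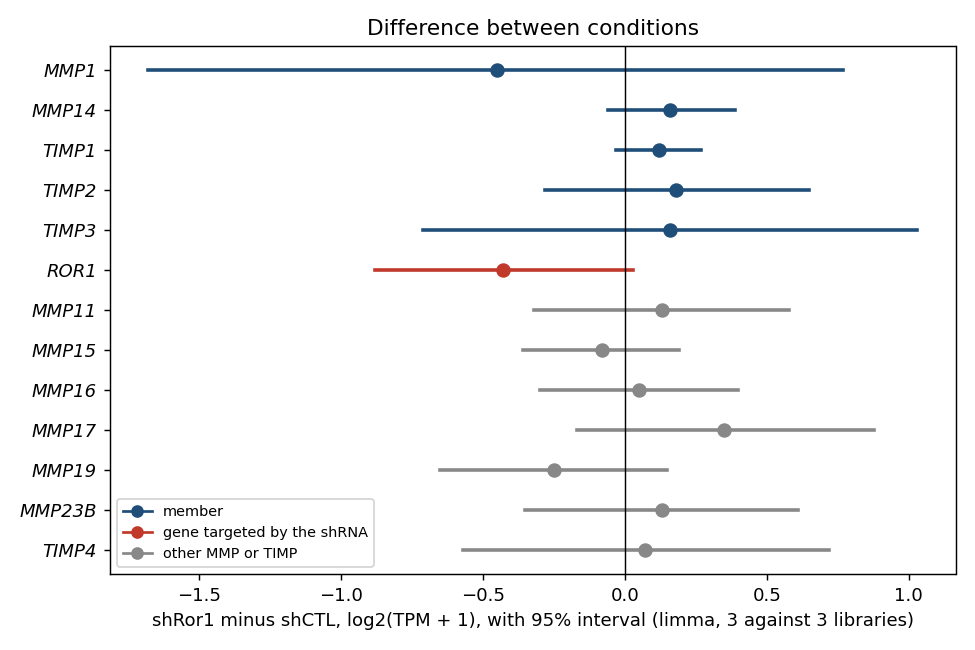
Difference between shRor1 and shCTL on the log2(TPM + 1) scale with its 95% interval from limma, for the 5 members above the minimum, for ROR1 and for the 7 other MMP and TIMP genes above it. Every interval includes 0, and those of MMP1 and TIMP3 are the widest.

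Because the direction of MMP1 and TIMP3 turned with single libraries, the spread between libraries of a condition was examined next. The highest library exceeded the lowest 3.58-fold in shCTL and 3.21-fold in shRor1 for MMP1, 1.91-fold and 2.92-fold for TIMP3, and 1.45-fold and 1.68-fold for TIMP2. For MMP14 the ratio was 1.18 and 1.19, and for TIMP1 1.08 and 1.05. The SD within a condition was 0.87 for MMP1, 0.61 for TIMP3, 0.32 for TIMP2, 0.13 for MMP14 and 0.05 for TIMP1 on the log2 scale. Among 11144 tested genes with a mean of at least 5 TPM, whose median SD was 0.13, these values stood at percentiles 99.4, 98.9, 92.6, 48.2 and 4.15. MMP1 and TIMP3 were thus among the most variable mRNAs between libraries of the same condition, and TIMP1 among the steadiest.

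**Figure D3:**
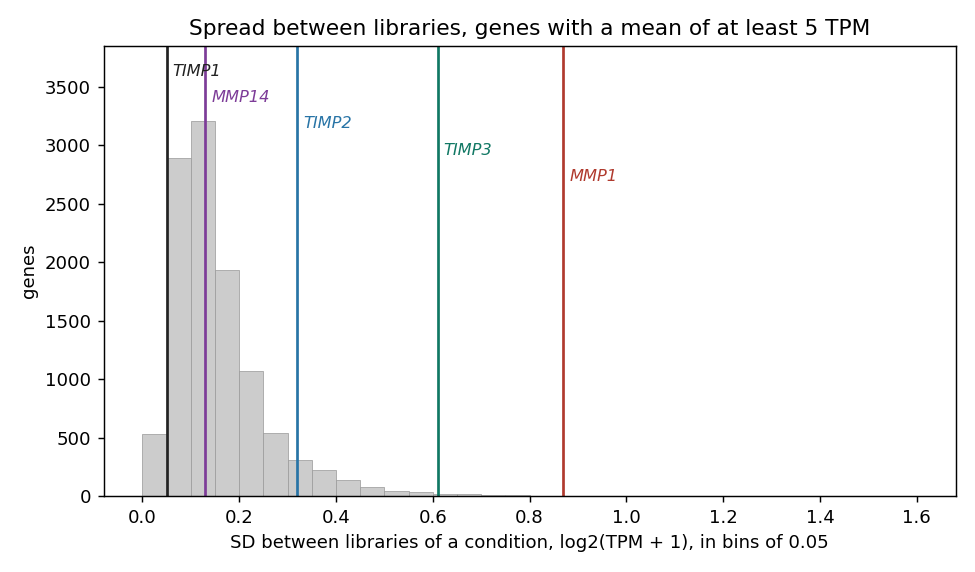
Number of genes by their SD between libraries of a condition on the log2(TPM + 1) scale, in bins of 0.05, over 11144 genes with a mean of at least 5 TPM (32 genes lie beyond the last bin). Lines mark the SD of 5 members, with TIMP1 at 0.05 in the low end and MMP1 at 0.87 in the far tail.

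This spread ran in opposite directions for MMP1 and the inhibitors TIMP2 and TIMP3, but not for TIMP1. Relative to the mean of its condition, MMP1 was 1.03 higher on the log2 scale in the first shCTL library and 0.95 higher in the first shRor1 library. In these libraries TIMP2 lay at -0.25 and -0.39 and TIMP3 at -0.33 and -0.63. In the third library of each condition MMP1 lay at -0.71 and -0.61, while TIMP2 lay at 0.28 and 0.35 and TIMP3 at 0.53 and 0.80. TIMP1 stayed between -0.06 and 0.04 in every library and did not follow this pattern. The columns carry no replicate number, so that libraries of the 2 conditions in the same place were not treated as pairs.

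**Figure D4:**
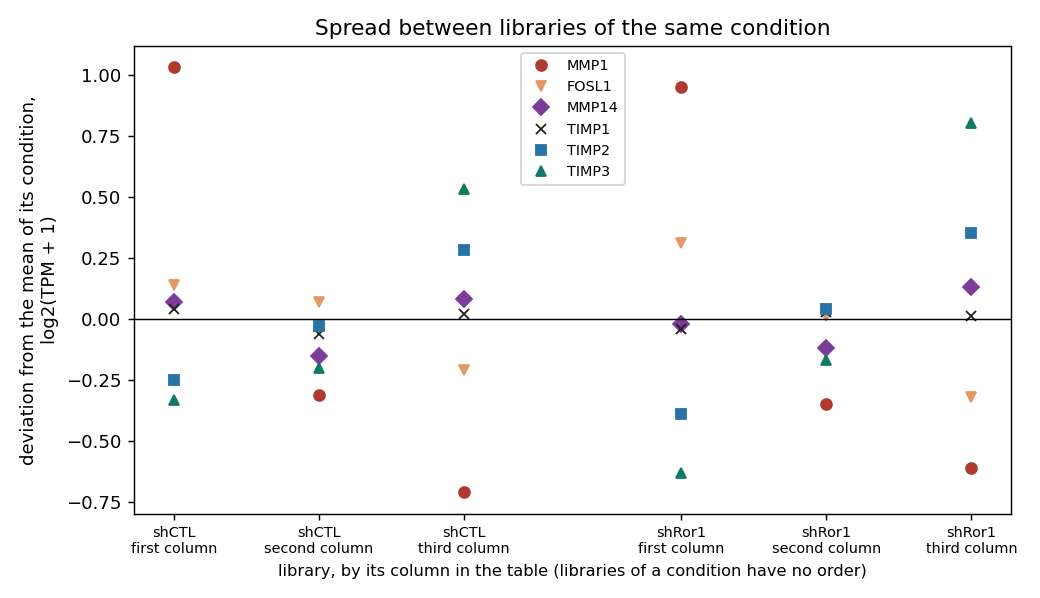
Deviation of 5 members and of FOSL1 from the mean of their condition, log2(TPM + 1), in each library by its column. MMP1 is above 0 in the first column of both conditions, where TIMP2 and TIMP3 are below 0, and the reverse holds in the third column.

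Over the 6 libraries, MMP1 and TIMP2 were negatively correlated on the log2 scale (Pearson r = -0.93, exact permutation p = 0.00556, adjusted over 10 pairs p = 0.0278; Spearman rho = -0.94, exact permutation p = 0.0167, adjusted p = 0.0833). Without the first library of each condition, the 2 farthest in MMP1, r was -0.97. The same omission gave r = -0.97 for MMP1 and MMP14, which was -0.18 over all 6 libraries. For MMP1 and TIMP1 it gave -0.87, against -0.27 over all 6. A strong negative r in this check was thus not particular to TIMP2. TIMP2 and TIMP3 were positively correlated (r = 0.94, exact permutation p = 0.00556, adjusted p = 0.0278; rho = 0.94, exact permutation p = 0.0167, adjusted p = 0.0833), and r was 0.90 without the 2 libraries farthest in TIMP2. For MMP1 and TIMP3, r was -0.79 (exact permutation p = 0.0194, adjusted p = 0.0648) and rho -0.89 (exact permutation p = 0.0333, adjusted p = 0.111), with r = -0.82 without the 2 farthest libraries. The other 7 pairs had an adjusted exact permutation p of at least 0.271. For MMP14 and TIMP1, r was 0.73 over all libraries and -0.29 without the 2 farthest. The direction of all 3 relations was the same when values were centred on the mean of each condition. The permutation treats the 6 libraries as independent, and as libraries in the same place of both conditions deviated alike for these genes, its p-values may be too small.

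**Figure D5:**
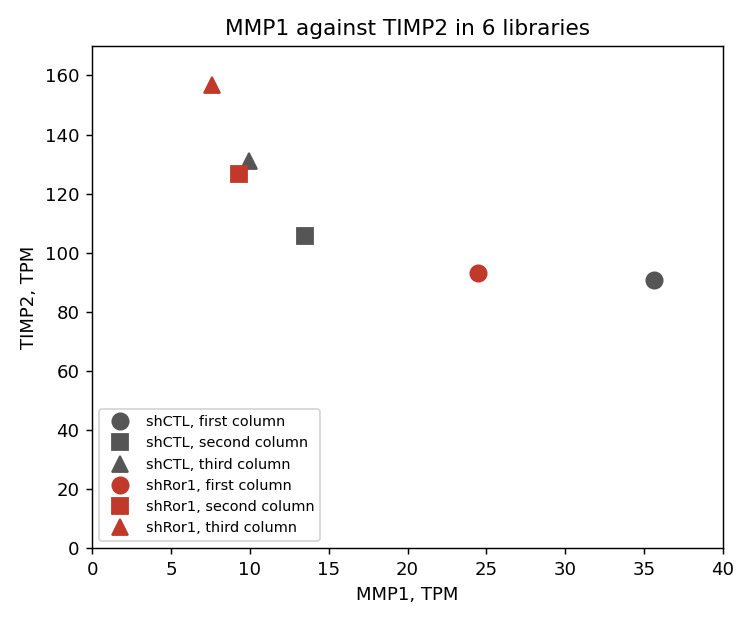
TPM of TIMP2 against TPM of MMP1 in the 6 libraries, with colour for the condition and shape for the column. The 2 libraries with the most MMP1 (24.46 and 35.65 TPM) have the least TIMP2 (93.25 and 90.71 TPM).

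The libraries also differed in ways that were shared by many genes. A leading component of the residuals held 40.8% of the variance within conditions and set the third library of each condition (scores 0.55 and 0.60) apart from the other 4 (-0.34 to -0.21). It carried 87.6% of the variance within conditions of TIMP3, 66.0% of that of TIMP2 and 61.3% of that of MMP14, but 35.4% of that of MMP1 and 9.53% of that of TIMP1. The number of genes at 1 TPM or more was 16036, 16134 and 16597 in shCTL and 16317, 16544 and 17033 in shRor1, highest in the third library of each. The part of these differences in the relation of MMP1 to TIMP2 and TIMP3 was not tested. The pattern was not particular to TIMP2 and TIMP3, as 332 of 11143 genes had r of at least 0.95 with TIMP2 and 345 with TIMP3, against 74 with MMP1, 64 with MMP14 and 29 with TIMP1.

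The genes most like MMP1 over the 6 libraries were HAX1 (r = 0.995), EFTUD2 (0.995) and TBC1D14 (0.992). Those most like MMP14 were OGT (0.990), BTAF1 (0.988) and TSPAN31 (0.986), and those most like TIMP1 were BIVM (0.994), FITM2 (0.986) and SMG1 (0.983). With 6 libraries and 11143 genes searched, values of this size are a description of likeness. HAX1 was 146.92, 127.88 and 119.06 TPM in shCTL and 138.82, 118.06 and 116.49 TPM in shRor1, a far smaller range than that of MMP1.

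Because TPM is scaled for length, proteases and inhibitors could be set against each other within a library. The summed level of the 7 MMPs was 163.0, 122.1 and 137.8 TPM in shCTL and 158.5, 133.6 and 156.2 TPM in shRor1, and that of the 3 TIMPs 226.1, 233.0 and 272.1 TPM in shCTL and 230.9, 274.8 and 314.5 TPM in shRor1. TIMP mRNA exceeded MMP mRNA in every library, with a ratio of MMPs to TIMPs of 0.721, 0.524 and 0.507 in shCTL and 0.686, 0.486 and 0.496 in shRor1. MMP14 made up 77.3 to 94.3% of the MMP sum and MMP1 4.87 to 21.9%. The ratio of MMP14 to TIMP2 was 1.39, 1.02 and 0.966 in shCTL and 1.42, 0.976 and 0.938 in shRor1, so that it was highest in the first library of each condition, and the ratio of MMP1 to TIMP1 ran from 0.0565 to 0.282. None of these ratios separated the conditions. They are ratios of mRNA and not of protein or activity.

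Of the rest of the family, 15 of 17 further MMP and TIMP genes were analysed here and 7 were above the minimum, all at low levels. TIMP4 had the highest level, with 6.58 ± 1.41 TPM in shCTL and 7.30 ± 3.30 TPM in shRor1. MMP19 had 2.66 ± 0.384 and 2.11 ± 0.542 TPM, MMP16 had 1.86 ± 0.349 and 1.95 ± 0.287 TPM, and the membrane-type MMP15 had 2.34, 2.31 and 2.36 TPM in shCTL and 1.99, 2.25 and 2.22 TPM in shRor1, all below control. None of the 7 was called, 5 differences were above 0 and 2 below, and their median was 0.07 on the log2 scale. For all genes tested the median was 0.05 and 67.0% were above 0.

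The ADAM and ADAMTS proteases, relatives of the MMPs that shed membrane proteins or cut proteoglycans, had 12 of 19 genes above the minimum and 0 called (8 above 0, 4 below, median 0.06). ADAM9 (185.5 ± 7.92 TPM in shCTL, 203.4 ± 17.6 in shRor1) and ADAM15 (142.2 ± 11.2 and 145.9 ± 12.6 TPM) were expressed above MMP14 in the mean. ADAM10 had 93.0 ± 11.1 and 98.2 ± 20.8 TPM, and ADAM17, which TIMP3 blocks, 30.0 ± 1.59 and 34.3 ± 4.19 TPM.

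Of the proteases that activate MMPs and their inhibitors, 11 of 16 genes were above the minimum and 0 were called (7 above 0, 4 below, median 0.07). The plasminogen activator PLAU had 166.0 ± 20.4 TPM in shCTL and 181.0 ± 17.5 TPM in shRor1, and its receptor PLAUR 124.1 ± 8.30 and 122.7 ± 11.6 TPM. The cathepsin CTSL had 106.17, 99.99 and 86.94 TPM in shCTL and 102.07, 93.77 and 89.16 TPM in shRor1. SERPINE2, chosen after its values were seen because its conditions did not overlap, had 23.53, 23.24 and 20.38 TPM in shCTL and 25.67, 28.15 and 24.15 TPM in shRor1, and was not called (limma, adjusted p = 0.984).

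Among cofactors and other inhibitors, 9 of 13 were above the minimum and 0 were called (7 above 0, 2 below, median 0.10). BSG, the glycoprotein EMMPRIN that induces MMPs in neighbouring cells, was the highest with 749.4 ± 70.3 TPM in shCTL and 799.7 ± 50.6 TPM in shRor1. CD44, a hyaluronan receptor that docks MMPs at the cell surface, had 512.73, 428.42 and 398.41 TPM in shCTL and 534.17, 399.66 and 359.19 TPM in shRor1. Within each condition it was highest in the library where MMP1 was highest. CD9 had 200.2 ± 38.4 and 222.6 ± 62.8 TPM, and THBS1 99.8 ± 12.5 and 93.2 ± 14.2 TPM.

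Of 19 transcription factors that act on MMP promoters, 18 were above the minimum and 0 were called (11 above 0, 7 below, median 0.03). The AP-1 subunit FOSL1 was the highest, at 247.57, 235.05 and 194.02 TPM in shCTL and 279.95, 226.75 and 180.99 TPM in shRor1. In both conditions it was highest in the first library and lowest in the third, as was MMP1, with a range of deviations (-0.32 to 0.31 on the log2 scale) well below that of MMP1. ETS1 had 97.0 ± 5.85 and 96.5 ± 9.90 TPM, STAT3 79.0 ± 3.62 and 80.0 ± 5.69 TPM, and FOSL2 79.1 ± 7.41 and 78.1 ± 13.4 TPM. The order of libraries was not particular to FOSL1. ETS1 shared it, with 103.28, 95.88 and 91.73 TPM in shCTL and 107.92, 91.56 and 90.08 TPM in shRor1, whereas STAT3 and FOSL2 did not.

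Of 17 ligands and receptors that induce MMPs, 14 were above the minimum and 0 were called (11 above 0, 3 below, median 0.14). The receptors TGFBR2 (89.5 ± 2.61 TPM in shCTL, 100.3 ± 15.9 in shRor1), EGFR (84.2 ± 5.75 and 85.1 ± 4.41 TPM) and MET (53.4 ± 3.40 and 60.2 ± 9.15 TPM) and the EGFR ligand HBEGF (45.3 ± 6.96 and 42.9 ± 6.86 TPM) were the highest.

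Of 15 matrix proteins cut by MMPs, 11 were above the minimum and 0 were called (7 above 0, 4 below, median 0.07). SPARC had 150.8 ± 25.7 TPM in shCTL and 145.2 ± 24.1 TPM in shRor1, and the basement membrane collagen gene COL4A2 59.2 ± 5.32 and 63.5 ± 8.97 TPM. The laminin gene LAMB3 had 108.47, 72.42 and 98.55 TPM in shCTL and 105.47, 65.63 and 98.95 TPM in shRor1. The fibronectin gene FN1 had 15.59, 20.84 and 43.88 TPM in shCTL and 17.02, 39.34 and 76.86 TPM in shRor1, lowest in the first library of each condition and highest in the third, as were TIMP2 and TIMP3. Its SD within a condition stood at percentile 99.4, the same as for MMP1, and its difference of 0.60 on the log2 scale (SE 0.55) was not called (limma, unadjusted p = 0.307).

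Finally, the genes around the chromosome 11 cluster were compared with MMP1. Within 1 Mb of the cluster, 41 further genes were listed and 8 were above the minimum, of which 0 were called (7 above 0, 1 below, median 0.12). Of all genes tested, 67.0% were above 0. TMEM123 (324.2 ± 5.72 TPM in shCTL, 342.3 ± 31.1 in shRor1), DCUN1D5 (79.93 to 99.88 and 77.36 to 99.33 TPM), YAP1 and BIRC2 (52.2 ± 4.56 and 57.0 ± 2.41 TPM) were the highest. YAP1, a coactivator of the Hippo pathway, had 87.18, 90.76 and 90.82 TPM in shCTL and 93.53, 98 and 97.31 TPM in shRor1, without overlap, and limma did not call it (unadjusted p = 0.144). The SD of YAP1 within a condition was 0.03 on the log2 scale beside 0.87 for MMP1.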

How the data were processed

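Polyadenylated RNA, per the labels, from 6 MDA-MB-231 samples (3 shCTL, 3 shRor1) was profiled with a stranded kit named for total RNA and sequenced as 50-base single reads. STAR was used by the authors for mapping to GRCh37 with Ensembl 73, and RSEM 1.2.5 for gene levels (CASAVA 1.8.2 and FastQC 0.10.0 are also named in the submitters' processing notes). The deposited table is called expected counts but holds TPM with 2 decimals, each column summing to 1000000 within rounding. The study lists mapped reads per library, but TPM keeps no depth and the columns could not be tied to single libraries, so that no read count behind a value was recovered and no count test was run, and a rise of 1 abundant gene lowers the values of the rest. Of 57445 identifiers 55022 matched a symbol.

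The minimum was 1 TPM in at least 3 libraries. A limma 3.58.1 model (R 4.3.3) of log2(TPM + 1) had the condition as its only term and a mean-variance trend. Adjustment was by Benjamini-Hochberg over all genes tested, with a threshold of 0.05. Fold changes on this scale understate changes of low genes. Exact two-sided permutation tests (scipy 1.17.1) compared 3 with 3 libraries and tested correlations. The fit was tested on simulated data in which genes varied independently, without the component that many genes share here. The added differences were larger than that of any member, so this says nothing about differences of the members' size. Positions came from GENCODE 44 on GRCh37. The columns name the condition only, and libraries are named by their place in the table. The members and gene lists were chosen with earlier results of these data known. Genes outside the members were named as the 4 highest of a list, at an unadjusted p of 0.05, or as the 3 most like a member, and exceptions are marked. A gene that this rule names is not reported here. Alternatives were the filter, pseudocount, scaling, trend, array weights and each library left out, and, chosen after the data were seen, the residual component and the settings of the correlations.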

Additional observations from a re-analysis of the deposited data

How the results depend on the processing

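The difference between shRor1 and shCTL was recomputed in 14 other fits, 6 of which left out 1 library. The number of genes called was 0 in the main limma fit (472 at an unadjusted p of 0.05) and ranged from 0 to 1 when each library was left out, the 1 without the third shRor1 library, and it was 0 in the other 8 fits. No member was called in any of them. Genes at an unadjusted p of 0.05 numbered 1363 without a filter (of 39104 tested), 227 with a mean of at least 5 TPM, 859 with array weights, 1060 with the residual component as a covariate (chosen after the data were seen), and 278 to 1720 with a library left out, the highest without the first shRor1 library. Without the second and the first shCTL library they numbered 278 and 289. MMP14, TIMP1 and TIMP2 kept their direction throughout (0.086 to 0.219, 0.063 to 0.146 and 0.01 to 0.382 on the log2 scale). MMP1 reversed to 0.058 without the first shCTL library and otherwise reached -0.932. TIMP3 reversed to -0.002 without the first shCTL library and to -0.24 without the third shRor1 library, and was 0.479 without the first shRor1 library. Quantile normalization and median ratio scaling moved the median difference of all genes from 0.05 to 0.00 and the share of genes above 0 from 67.0% to 50.5% and 50.2%, without reversing a member. In 10 other settings r stayed between -0.97 and -0.92 for MMP1 and TIMP2, between 0.88 and 0.99 for TIMP2 and TIMP3, and between -0.87 and -0.73 for MMP1 and TIMP3, whose exact permutation p rose to 0.0833 without the second shCTL library and 0.1 without the third shRor1 library. No paired analysis was possible because column headers hold no replicate number, although libraries in the same place of the table deviated alike for MMP1, TIMP2 and TIMP3. ROR1 kept its direction in all 14 fits (-0.577 to -0.264 with a library left out) and was called in none. Its unadjusted p was under 0.05 in 5 of them, at 0.0195 and 0.0351 without the third shRor1 and the second shCTL library, 0.0151 after quantile normalization, 0.0233 after median ratio scaling and 0.00561 with the residual component. The 5 members under 1 TPM have no read counts behind their values here.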
